A study of Rattus norvegicus with 10 samples.

Results

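The genes described here encode proteins that dock secretory vesicles at the cell membrane and release their content when calcium enters the cell. They were listed by name, 43 in all, among 14218 genes that the platform annotation ties to at least 1 probe set carrying a single symbol. A gene was read on its probe set with the highest mean signal over all arrays. Of the 43, 42 had such a probe set (Doc2a had none), and 34 were bright enough to be tested.

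RNA was taken from pituitary neurointermediate lobes, the posterior lobe with the attached intermediate lobe, of male Sprague Dawley rats 10 to 12 weeks old. One group had been dehydrated for 3 days and the other was the control group, euhydrated per the series title, and no transgene or drug is named for either. Each group had 5 Affymetrix Rat Genome 230 arrays (version 2.0), and each array carried the pooled tissue of 5 animals from a separate set of rats, so the spread between arrays is a spread between pools. The design text speaks of the supraoptic nucleus, but the title and every sample label give the neurointermediate lobe, and the labels were followed.

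Regulated exocytosis rests on SNARE proteins: a vesicle SNARE (a VAMP) zips up with syntaxin and SNAP-25 on the cell membrane and pulls the membranes together. Many synaptotagmins and the DOC2 proteins sense calcium, and Rab3 and Rab27 with their effectors tether and dock vesicles. Complexins, Munc13 and CAPS prepare them for fusion, and NSF with the SNAPs takes spent SNARE complexes apart. In this lobe the machinery serves the axon endings that release vasopressin and oxytocin and the melanotrophs that release peptides made from pro-opiomelanocortin. The cell bodies of the vasopressin and oxytocin neurons lie in the hypothalamus, outside the dissection.

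Markers of cell types of the neurointermediate lobe were present. All 7 measured melanotroph markers had signals of 318 or more on every array, and 9 of 11 measured pituicyte and astroglia markers were bright enough to be tested (Slc1a2 and Aldh1l1 were not). All 6 hormone genes of the neighbouring anterior lobe were also above the intensity filter, with a summed signal of 4824 to 9379 on dehydrated and 2574 to 7949.7 on control arrays. Of these 6, 5 had a positive change and 1 a negative one, which was called lower. Signals in the deposited table are on a linear scale, and the arrays' medians lay between 35.7 and 39.6. A measure called here the RNA integrity ratio was taken from the GAPDH and beta-actin transcripts. It is the log2 of how much brighter their 3' end appeared than their 5' end, averaged over both transcripts. It increases as RNA, amplified here from its 3' end by an antisense RNA kit, is shortened. Whether it follows the state of the input RNA or the amplification was not tested. It was 2.27, 2.67, 2.15, 2.05 and 1.61 on dehydrated arrays 1 to 5 and 2.52, 1.68, 1.51, 1.91 and 1.26 on control arrays 1 to 5 (exact two-sided permutation p = 0.214). The ratio tended to be higher in the dehydrated group, but dehydrated 5 and control 1 went against that order, which matters for several genes below.

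Among the exocytosis genes, calls were about as rare as over all probe sets. Of 34 tested, 1 fell, Syt4, none rose, and 33 did not pass a limma adjusted p of 0.05. Of all 18625 tested probe sets 2.46% passed, and 0.784% passed and were lower. At 1 of 34, or 2.94%, the members lay near that background. At an unadjusted p under 0.05 there were 7 members, 6 lower (Syt4, Rab3d, Rab27b, Stx3, Cplx1 and Rab27a) and 1 higher (Snap25), against 17.4% of all probe sets, or 8.66% counting only those lower. The groups did not overlap for 1 of the 34, again Syt4, and for 4.59% of all probe sets.

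The median log2 change, dehydrated minus control, was -0.10 over the 34 members and -0.01 over all tested probe sets. The change was negative for 26 of the 34 and for 52.6% of all probe sets. Over the alternatives that tested all 34, between 21 and 27 were negative, the lowest number after centring each array on its median. Summed signals of markers of other cells were higher on every dehydrated than on every control array for fibroblasts (5075 to 6004 against 3883 to 4436, 3 of 6 called higher), for pituicytes and astroglia (5226 to 5944 against 4669 to 5106, 3 of 9 tested called higher) and for endothelium and mural cells (1149.7 to 1429 against 724 to 959, 4 of 6 called higher). Those of macrophages overlapped (994 to 1580.2 against 967 to 1251, 1 of 5 called higher). A negative change was found for 1 of 6 fibroblast and 3 of 9 pituicyte and astroglia markers. The same held for 1 of 6 endothelium and mural cell and 1 of 5 macrophage markers. At an unadjusted limma p under 0.05, 1 pituicyte and astroglia marker and 1 macrophage marker were lower. Avp and Oxt, the RNAs of the neurosecretory axons, rose (3314 to 4552 against 1849.6 to 2037). No marker was at 0 on any array, and the part of these levels in the members' changes was not tested.

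**Figure D1:**
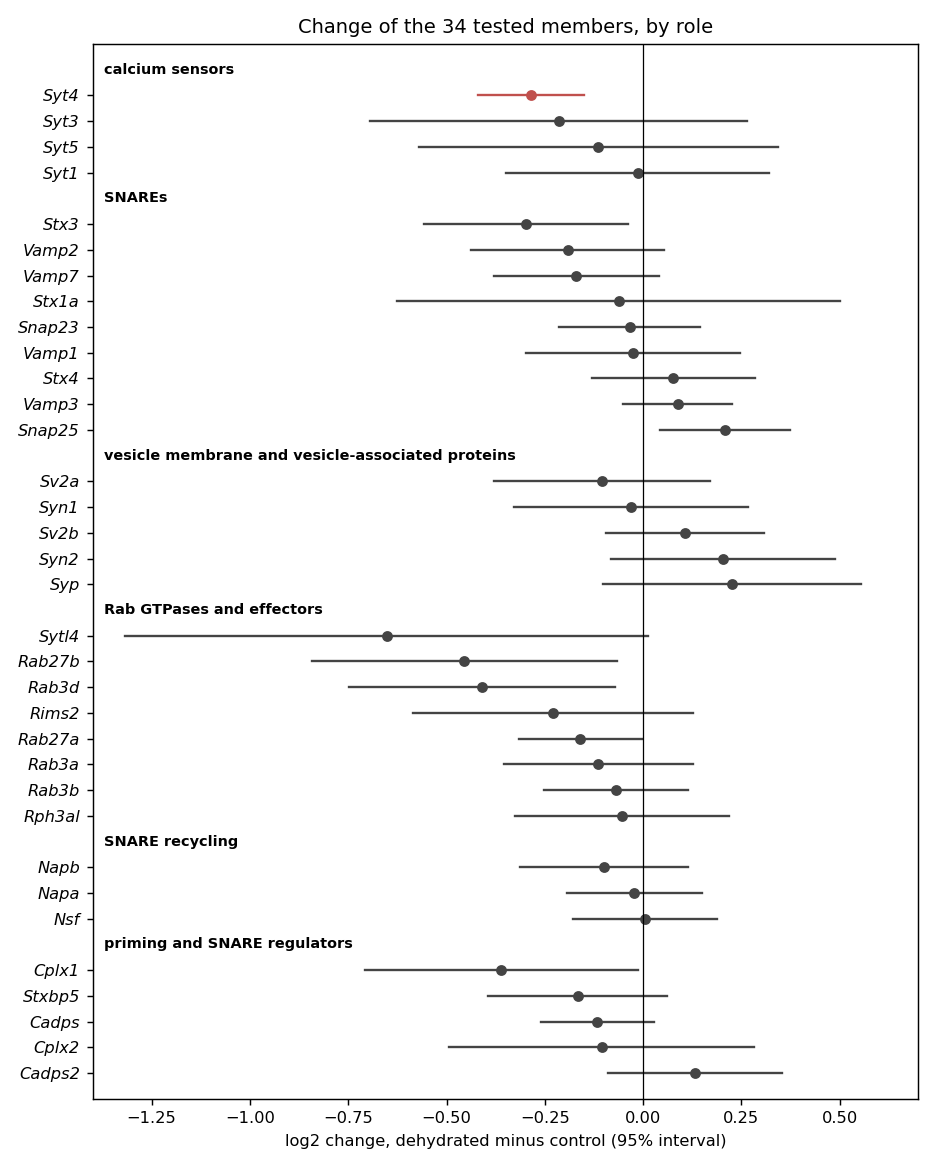
Log2 change (dehydrated minus control) of the 34 tested members, grouped by role, with points for the limma estimate and bars for its 95% interval. Syt4, in red, is the member with an adjusted p under 0.05, at -0.29. Rab GTPases and effectors all lie left of 0 and Syp, Snap25 and Syn2 lie farthest right.

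Of the group listed here as calcium sensors, Syt4 fell. It encodes synaptotagmin 4, a vesicle protein whose first C2 domain does not bind calcium. Its place in that group does not mean that it senses calcium. The Syt4 transcript is known to be induced by depolarisation and cyclic AMP. Its signal (Entrez Gene 64440) was 1765, 1713, 1593, 1862 and 1658 on dehydrated arrays 1 to 5. On control arrays 1 to 5 it was 2174, 2029, 2127, 1993 and 2148. Every dehydrated array lay below every control array, and the means were 1718 ± 103 and 2094 ± 79.0 (SD, n = 5). The decrease was 1.22-fold (log2 change -0.29 ± 0.06 SE, limma adjusted p = 0.0235). With the RNA integrity ratio as a covariate the change was as large (-0.29, adjusted p = 0.0346). The signal and that ratio had r = -0.354 and rho = -0.297 over 10 arrays (adjusted permutation p = 0.592 and 0.613), and r = -0.0228 without the 2 arrays whose ratio was farthest from the median.

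The call of Syt4 was close to the threshold. It ended under 10 of 24 alternatives, among them leaving out dehydrated 3 or control 1, 3 or 5, and its adjusted p lay between 0.00114 and 0.1001 in refits on the same probe set. Its change was negative in all of those, from -0.39 to -0.25. A melanotroph marker level, the mean log2 value of 7 genes, moved the same way, at 10.07 ± 0.06 on dehydrated and 10.23 ± 0.07 on control arrays (SD, n = 5 each, difference -0.16, exact two-sided permutation p = 0.0159). Pcsk2, a prohormone convertase, carried most of that difference, at -0.88 (limma adjusted p = 0.00219). The summed signal of the 7 genes overlapped, at 9463 to 11347 on dehydrated and 10171 to 11440 on control arrays. The median change of the 7 was -0.08, with 5 negative and 2 positive, and the other 6 did not pass. The part of that level in the change of Syt4 was not tested. In such bulk tissue, fewer cells of a type and less RNA per cell cannot be told apart.

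Because Syt4 was the member that passed, its promoter is shown. In the RefSeq table of build GRCr8 it lies at chr18:23320814-23321113 on the minus strand and runs from 250 bases before to 50 bases after the gene's start. It was searched on both strands for the cyclic AMP response element (TGACGTCA), its core (TGACG, which a full site contains on either strand), the AP-1 site (TGANTCA) and the NBRE (AAAGGTCA). Capitals mark cores, here 2 in the reverse orientation:

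Syt4: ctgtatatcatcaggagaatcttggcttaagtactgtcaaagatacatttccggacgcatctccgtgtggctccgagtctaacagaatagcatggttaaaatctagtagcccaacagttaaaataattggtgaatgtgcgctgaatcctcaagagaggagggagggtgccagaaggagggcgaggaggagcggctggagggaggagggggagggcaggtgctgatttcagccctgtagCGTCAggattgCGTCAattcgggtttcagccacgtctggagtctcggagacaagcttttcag

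The cores start at bases 239 and 250 of this window, beside the start of the gene. At least 1 core was present in 21.2% of all 33469 promoters of that length, and 2 or more in 4.96%. Of 35 members with a promoter in the table, 11 held at least 1 and 7 held 2 or more, namely Napa, Vamp1, Rab3b, Cplx1, Unc13a, Syt4 and Syn1. A full site was found in Napa, Vamp1 and Syn1 (1.83% of all promoters) and an AP-1 site in Rab27b and Syp (7.33%). No member held an NBRE (1.43%). These matches are letters in a window and were not tied to any change.

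The other genes of the calcium sensor group did not pass. Syt1, the fast calcium sensor of neuronal release, was dim, with signals of 21.0, 26.4, 31.1, 22.8 and 28.0 on dehydrated and 23.1, 24.7, 26.4, 25.2 and 30.9 on control arrays 1 to 5. The groups overlapped fully, with a log2 change of -0.01 and a 95% interval from -0.35 to 0.32. Its sign turned under several alternatives. Syt3 had mean signals of 70.5 and 79.0, and Syt5, of the same family, 42.6 and 45.9, in the dehydrated and control group. Syt7, Syt11 and Doc2b were too dim to test.

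Among the SNAREs, Snap25 had the smallest p and pointed upward. It encodes SNAP-25, the membrane-anchored partner of syntaxin in neurons and endocrine cells. Its signal was 2635, 2313, 2493, 2298 and 1958 on dehydrated arrays 1 to 5 and 2015, 1905, 1949.7, 2177 and 2036 on control arrays 1 to 5. Of the dehydrated arrays 4 were above every control array, and dehydrated 5 was inside the control range. The log2 change was 0.21 ± 0.08 SE with an adjusted p of 0.181. It was 0.09 after quantile and 0.10 after cyclic loess normalization (adjusted p = 0.394 and 0.397). Without dehydrated 5 it was 0.27 and passed (adjusted p = 0.0237), and the members called were then 2 of 34, Syt4 and Snap25, with 6.24% of all probe sets called.

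Stx3, a syntaxin of the cell membrane, pointed downward. Its signal was 78.4, 95.3, 72.9, 64.4 and 102 on dehydrated and 97.9, 111, 104, 94.2 and 100 on control arrays 1 to 5. The groups overlapped through dehydrated 2 and 5, and the log2 change of -0.30 ± 0.12 SE did not pass (adjusted p = 0.224). Vamp2, or synaptobrevin 2, the vesicle SNARE of neurons and endocrine cells, had signals of 124, 115, 111, 136 and 139.8 on dehydrated and 164, 108, 156, 140.4 and 155 on control arrays 1 to 5. The control range enclosed all dehydrated arrays, and the log2 change was -0.19 ± 0.12 SE (adjusted p = 0.416).

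Syntaxin 1A, the neuronal partner of SNAP-25, was dim and scattered. Stx1a signals were 19.6, 53.0, 37.0, 35.9 and 50.3 on dehydrated and 43.7, 17.0, 51.2, 46.7 and 49.1 on control arrays 1 to 5. Each group held 1 array far below its others, and the 95% interval of its log2 change, -0.62 to 0.50, allows a sizeable change either way. Other SNAREs were measured more tightly, the widely expressed Snap23, Stx4 and Vamp3 and the neuronal vesicle SNARE Vamp1. Snap23 (log2 change -0.03, interval -0.21 to 0.14), Stx4 (0.08, -0.13 to 0.28), Vamp1 (-0.02, -0.30 to 0.25) and Vamp3 (0.09, -0.05 to 0.22) each had intervals that include 0.

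Proteins of the vesicle itself showed no call. Syp encodes synaptophysin, a major membrane protein of small vesicles. Its signal was 314, 282, 268, 201 and 198 on dehydrated and 278, 151, 240, 224 and 187 on control arrays 1 to 5, so the groups overlapped widely. The log2 change was 0.23 ± 0.15 SE (adjusted p = 0.480), and 0.05 with the RNA integrity ratio as a covariate. Sv2b, a vesicle glycoprotein, had means of 1012 ± 161 and 930 ± 31.2 (SD, n = 5) in the dehydrated and control group, with 4 of 5 dehydrated arrays above every control array and dehydrated 5 below all of them (adjusted p = 0.610). Sv2a, of the same family, had mean signals of 64.2 and 70.0 and Syn1, a synapsin that ties vesicles to the cytoskeleton, 49.8 and 51.6. Sv2c was too dim to test.

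Of the Rab GTPases and their effectors, none passed, although all 8 tested had a negative change. With 22 alternatives that tested all 8, every one was negative in 19, and 7 of 8 were negative without control 1, without dehydrated 5 and without both. Rab27a, which docks dense-core granules and melanosomes, had the brightest signal of its probe sets at 1003, 933, 945, 925 and 919 on dehydrated and 1186, 909, 1134, 1039.9 and 1031 on control arrays 1 to 5. All dehydrated arrays lay below 4 of the control arrays, while control 2 was lowest of all (log2 change -0.16 ± 0.07 SE, adjusted p = 0.278).

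Rab27b, the close relative of Rab27a in secretory cells, had signals of 26.1, 57.5, 46.2, 60 and 36.7 on dehydrated and 54.6, 71.0, 65.0, 65.4 and 53.4 on control arrays 1 to 5. Dehydrated 1, 3 and 5 were below every control array and the other two were inside the control range (log2 change -0.45 ± 0.18 SE, adjusted p = 0.214). With the RNA integrity ratio as a covariate its change was -0.49. Rab3a, the main Rab3 of synaptic vesicles, had signals of 179, 161, 166, 177 and 182 on dehydrated and 222, 136, 184, 194 and 213 on control arrays 1 to 5. The control range enclosed the dehydrated one (log2 change -0.11 ± 0.11 SE, adjusted p = 0.655). Rab3b was at 532 and 555, Rims2, a Rab3 effector of the release site, at 38.4 and 45.2, and Rph3al, or Noc2, an effector in endocrine granules, at 112 and 117 in the dehydrated and control group. Rab3c, Rims1 and Rims3 were too dim to test.

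Rab3d and Sytl4 did not pass on 10 arrays and passed only without dehydrated 5 and control 1. Those arrays were the ones whose RNA integrity ratios went against the order of the groups. Rab3d marks secretory granules of gland cells. Its signal was 61.6, 47.8, 75.0, 73.6 and 95.1 on dehydrated and 74.7, 93.9, 99.8, 85.4 and 118 on control arrays 1 to 5 (log2 change -0.41 ± 0.16 SE, adjusted p = 0.197). Sytl4 encodes granuphilin, a Rab27 effector that docks granules. Its signal was 94.2, 37.3, 79.4, 128 and 172 on dehydrated and 77.7, 156, 187, 131 and 226 on control arrays 1 to 5 (log2 change -0.65 ± 0.31 SE, adjusted p = 0.297). Without dehydrated 2 the change of Sytl4 was -0.35 (adjusted p = 0.543). In both genes dehydrated 5 was the highest dehydrated and control 1 the lowest control array.

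**Figure D2:**
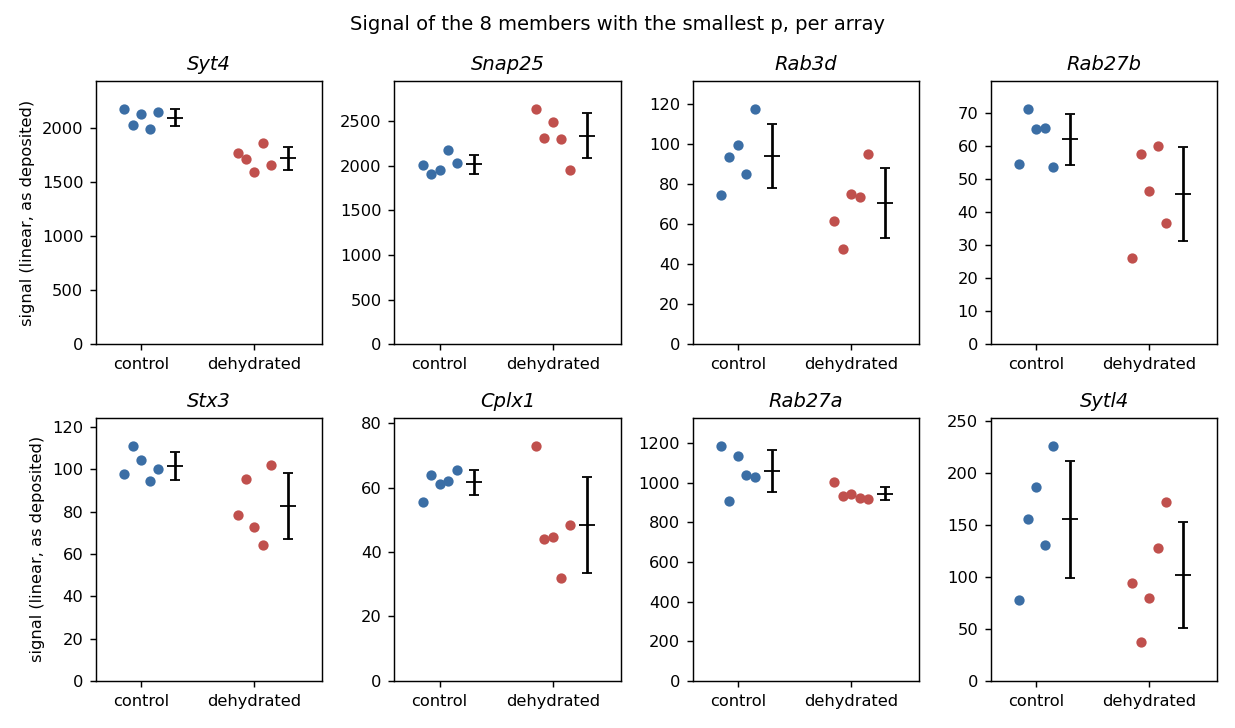
Signal, on the linear scale as deposited, of the 8 members with the smallest p, for 5 control and 5 dehydrated arrays. Bars at the side give the mean ± SD. Syt4 is separated between the groups (1593 to 1862 against 1993 to 2174), while the other 7 overlap.

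Dehydrated 5 and control 1 had RNA integrity ratios that went against the order of the groups. Rab3d and Sytl4 passed only in the fit without both arrays. Syt4 also passed on all arrays, and Snap25 also without dehydrated 5 alone. Without both, 4 of 34 members passed (11.8%), against 7.51% of all probe sets: Syt4 (-0.26), Rab3d (-0.59) and Sytl4 (-1.09) fell, and Snap25 (0.27) rose, with limma adjusted p of 0.0363, 0.0284, 0.0205 and 0.0360. On those 8 arrays the ratio was 2.05 or more on every dehydrated and 1.91 or less on every control array. Over those arrays alone, effects of dehydration and of whatever sets the ratio cannot be told apart.

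Several members followed the RNA integrity ratio from array to array. Over the 34 tested members, the log2 signal was correlated with the ratio across the 10 arrays, and 4 had a Benjamini-Hochberg adjusted permutation p under 0.05 for r, 3 of them negative. By rho Sv2b passed as well (rho = 0.818, adjusted permutation p = 0.0401, against r = 0.718 and 0.0932). The signals and the ratio come from the same arrays. No share over all probe sets was computed for this correlation, so the 4 of 34 have no background to be set against. Sytl4 had r = -0.950 (rho = -0.988, adjusted permutation p = 0.00051 for r and 0.00068 for rho), r = -0.947 without dehydrated 2 and control 5, whose ratios were farthest from the median, and r = -0.938 with each group's mean taken off.

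Rab3d had r = -0.928 (rho = -0.939, adjusted permutation p = 0.00147 and 0.00306 over 10 arrays), -0.861 without those 2 arrays and -0.932 with group means taken off. Vamp7 is a vesicle SNARE of late endosomes and lysosomes, and its signal was 166, 145, 175, 205 and 202 on dehydrated and 180.2, 198, 208, 201 and 216 on control arrays 1 to 5. It had r = -0.863 (rho = -0.879, adjusted permutation p = 0.00527 and 0.0127), -0.758 and -0.828 in the same order. Syn2, a synapsin, ran the other way, with signals of 159, 205, 158, 136 and 129 on dehydrated and 173, 128, 114, 149.9 and 116 on control arrays 1 to 5. It had r = 0.954 (rho = 0.964, adjusted permutation p = 0.00051 and 0.00068), 0.938 and 0.944. For these 4 genes arrays of both groups therefore lay along a common course.

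With the ratio as a covariate, the change was smaller in size for 22 of the 34 members. The share over all probe sets was not computed here either. For the 4 genes above, chosen by their correlation with the ratio, the fit is a description: the log2 change of Sytl4 went from -0.65 to -0.10, that of Rab3d from -0.41 to -0.18, that of Vamp7 from -0.17 to -0.06 and that of Syn2 from 0.20 to -0.0014. None of these 4 passed in either fit. In that fit 1 of the 34 members passed, Syt4. The change of Snap25 with the covariate was 0.16 (adjusted p = 0.414).

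**Figure D3:**
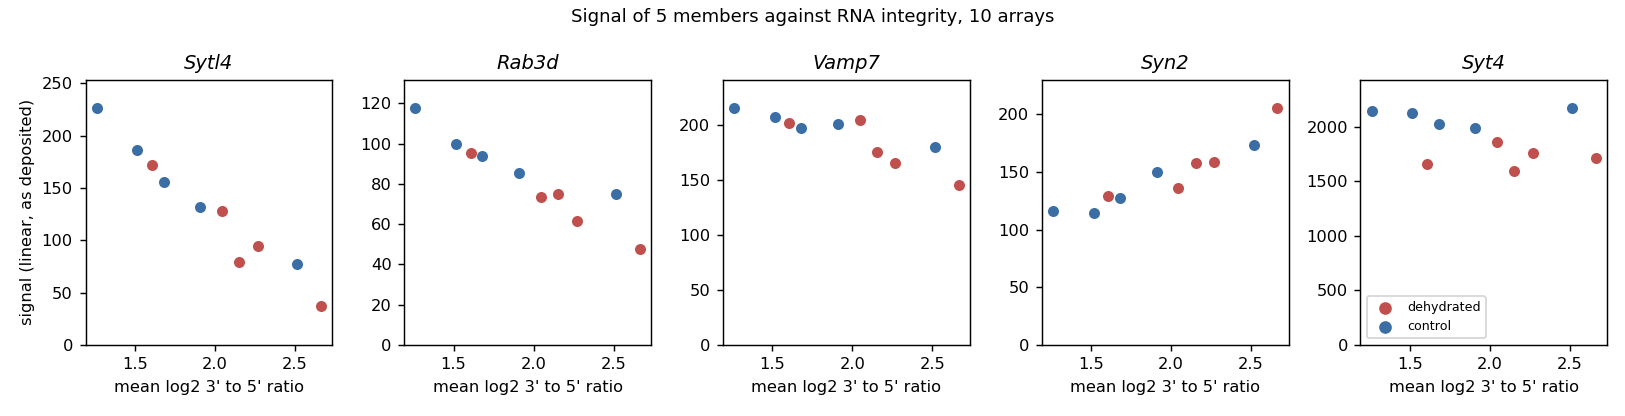
Signal (linear, as deposited) of 5 members against the RNA integrity ratio (log2 of 3' over 5' signal), 1 point per array. Sytl4, Rab3d and Vamp7 decline and Syn2 rises along the ratio with both groups on 1 course. For Syt4 every dehydrated array lies below every control array. The groups do not cover the same ratios: only control arrays lie below 1.61 and only a dehydrated array lies above 2.52.

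Priming proteins and SNARE regulators gave no call either. Cplx1 encodes complexin 1, which binds the assembled SNARE complex. Its signal was 72.9, 43.9, 44.6, 32.0 and 48.4 on dehydrated and 55.4, 64.0, 61.2, 62.1 and 65.5 on control arrays 1 to 5, so that 4 dehydrated arrays were below all control arrays and dehydrated 1 was above them. The log2 change was -0.36 ± 0.16 SE (adjusted p = 0.270). Its relative Cplx2 had mean signals of 32.7 and 35.2.

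Cadps encodes CAPS1, which primes dense-core vesicles. Its signal was 448, 430.2, 437, 419.5 and 402 on dehydrated and 442, 462, 432, 484 and 501 on control arrays 1 to 5, and 3 dehydrated arrays lay below every control array (log2 change -0.12 ± 0.07 SE, adjusted p = 0.401). Cadps2, the second CAPS, pointed upward with means of 187 and 171 (adjusted p = 0.557). Stxbp5, or tomosyn, which withholds syntaxin and SNAP-25 from fusion, had signals of 144, 139, 197, 158 and 198 on dehydrated and 168, 181, 191, 199.5 and 193 on control arrays 1 to 5. Dehydrated 1, 2 and 4 were below every control array and the other two inside their range (log2 change -0.17 ± 0.11 SE, adjusted p = 0.450). Unc13a, which encodes Munc13-1, was too dim to test.

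The genes that take SNARE complexes apart did not pass on their brightest probe sets. Nsf, the ATPase of that step, had signals of 263, 199, 213, 235 and 245 on dehydrated and 238, 225, 215, 222 and 247 on control arrays 1 to 5. The control range lay inside the dehydrated one, and the 95% interval of the log2 change ran from -0.18 to 0.19. Its adaptors Napa (means of 588 and 600.2, interval -0.19 to 0.15) and Napb (100.02 and 107, interval -0.31 to 0.11) likewise had intervals that include 0. The 8 members that were too dim to test had signals between 1.9 and 30.0, and in none of them were the groups separated.

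Some members differed in size of change between their probe sets, while others, such as Cadps (-0.12 and -0.08) and Stxbp5 (-0.17, -0.11 and -0.24), gave values within their SE. There were 9 genes with more than 1 tested probe set, with 13 further probe sets, none of which passed. In 9 of the 13 the change was more negative than on the gene's brightest probe set. Nsf is an example: the change was -0.30 ± 0.13 SE on the second and -0.75 ± 0.27 SE on the third probe set (adjusted p = 0.262 and 0.163), against 0.00 on the brightest. Where each probe set lies on its transcript was not used here.

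Rab27a showed the same pattern on brighter signals. On its second probe set the signal was 133, 114, 135, 167 and 240 on dehydrated and 168, 220, 283, 255 and 353 on control arrays 1 to 5, a log2 change of -0.68 ± 0.19 SE (adjusted p = 0.0681) against -0.16 on the brightest. On the third probe set of Rab27a the change was -0.76 ± 0.31 SE. On the second probe set of Syt4 the change was -0.93 ± 0.32 SE, from a mean of 73.6 ± 23.3 in the control to 39.8 ± 20.9 in the dehydrated group (SD, n = 5), with overlapping groups and an adjusted p of 0.145. Syn2 turned direction between probe sets, at 0.20 on the brightest and -0.49 and -0.20 on the others.

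**Figure D4:**
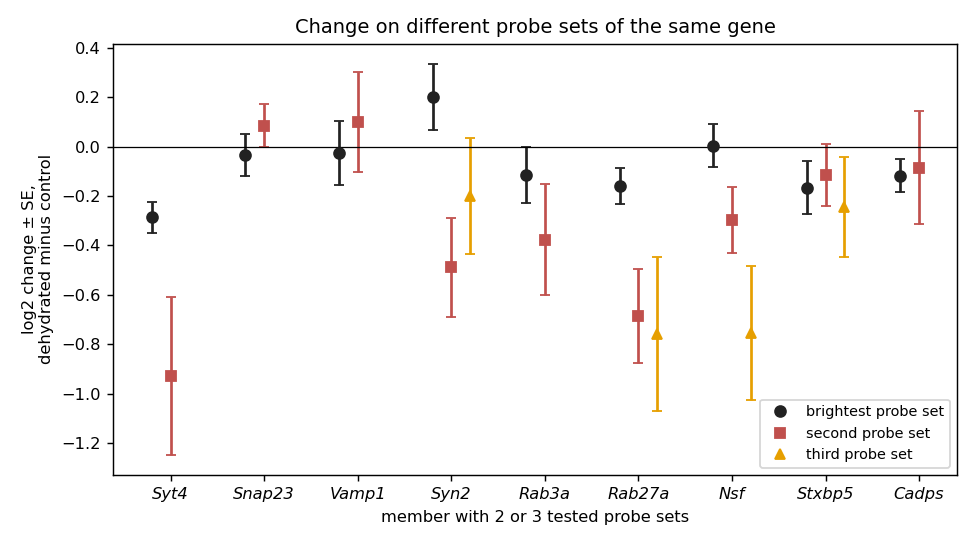
Log2 change ± moderated SE (dehydrated minus control) on each tested probe set of the 9 members with 2 or 3 of them, ordered by mean signal within a gene. The dimmer probe sets of Syt4, Syn2, Rab3a, Rab27a and Nsf lie below the brightest one, those of Snap23 and Vamp1 above it.

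The gap between probe sets of a gene followed the RNA integrity ratio in several cases. Over the 13 probe sets, the log2 difference to the brightest probe set of the same array was correlated with the ratio across the 10 arrays. It was negative in 10, and 5 had an adjusted permutation p under 0.05 for r: the second probe set of Syt4 (r = -0.900, rho = -0.976), the second and the third of Rab27a (r = -0.951 and -0.947, rho = -0.964 and -0.927), the third of Syn2 (r = -0.896, rho = -0.867) and the second of Rab3a (r = -0.885, rho = -0.879). Their adjusted permutation p were 0.000303 for the first 3 and 0.00208 for the other 2 for r, and at most 0.00504 for rho. Without dehydrated 2 and control 5, r was -0.921, -0.911, -0.904, -0.905 and -0.747 in the same order, and with group means taken off -0.875, -0.947, -0.935, -0.880 and -0.861. The third probe set of Nsf had r = -0.556 (rho = -0.782, adjusted permutation p = 0.118 and 0.0231), and Snap23 had r = 0.647 (rho = 0.648, adjusted permutation p = 0.0758 and 0.0914).

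**Figure D5:**
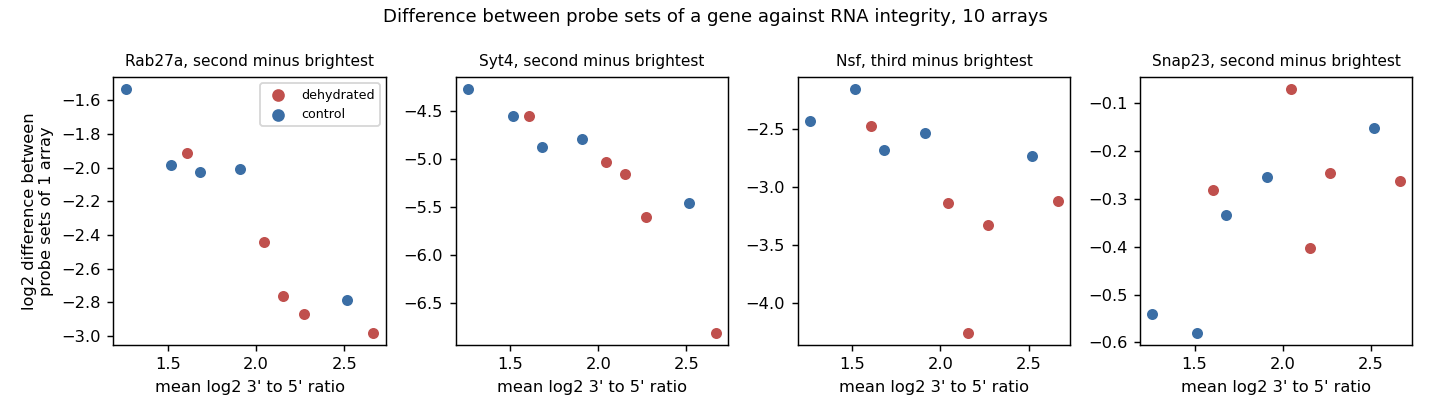
Log2 difference between a dimmer and the brightest probe set of 1 gene on the same array, against the RNA integrity ratio (log2 of 3' over 5' signal), for Rab27a, Syt4, Nsf and Snap23, 1 point per array. The difference of Rab27a and Syt4 becomes more negative along the ratio in both groups, and that of Snap23 does not.

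With the ratio as a covariate, the change on the second probe set of Syt4 was -0.42 in place of -0.93, and that of Rab27a -0.37 in place of -0.68. In 10 of the 13 cases the gap between the changes on the further and the brightest probe set was smaller with the covariate than without it. Several of these gaps had already been seen to follow the ratio on the same arrays. These fits are therefore a description and not a separate test. Probe sets of genes other than the members were not examined in this way.

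No gene of the rest of the pathway passed either. Of 115 other exocytosis genes, 101 had a probe set with 1 symbol and 76 were tested. By limma 0 of the 76 passed, against 2.46% of all probe sets. At an unadjusted p under 0.05 there were 15 of the 76, 5 higher and 10 lower, against 17.4% of all probe sets (8.66% lower). The groups did not overlap for 4, against 4.59% of all probe sets: Stx18, Rab11a, Scamp1 and Clta, named after their values were seen. These shares lay near the background. Their median log2 change was -0.02, and 43 of 76 were negative.

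By list, 17 other SNAREs and SNARE regulators had changes from -0.35 to 0.40, and 21 active zone proteins and Rab regulators from -0.35 to 0.23. The 15 other vesicle membrane proteins, proton pump subunits included, spanned -0.50 to 0.18, the 6 exocyst subunits -0.35 to 0.24 and the 17 genes of membrane retrieval -0.54 to 0.12. The members of these lists nearest to the threshold, chosen after their values were seen, were Vamp5, a VAMP of muscle and vessel cells, at 0.40 (adjusted p = 0.0667), and Stx16, a syntaxin of the trans-Golgi network, at -0.35 (adjusted p = 0.0696). Vamp5 passed after median centring (0.44, adjusted p = 0.0497). The part of the endothelial and mural cell markers, which were higher in the dehydrated group, in the value of Vamp5 was not tested.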

How the data were processed

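The authors deposited scaled linear intensities, 1 for each probe set on each array: means after trimming 2% at each end were 100.02 or 100.03. Per the submitters' processing notes GCOS 1.2 was used; settings are not given in the sources used here. The number of arrays limits the precision.

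Values were taken as log2(signal + 5). Without 57 controls, the brightest 60%, 18625 probe sets, entered limma 3.58.1 (R 4.3.3, two-sided, lmFit, then eBayes with an intensity trend, and Benjamini-Hochberg adjustment). Folds are on this scale. Single measures used an exact permutation test over 252 splits, and correlations, added after the data were seen, 100000 permutations in Python 3.11.15.

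Members and lists were chosen with earlier results of these data known. Array values are given for called members, then members by p up to 12, and for Syt1, Snap25, Stx1a, Vamp2, Syp, Rab3a, Nsf and Cadps; of other lists, called genes only. Syn2 was added after its values were seen. Array numbers follow deposition order and pair nothing. Alternatives covered scaling, pseudocount, filter, variance model, probe set choice, covariates and left-out arrays. Promoters are RefSeq's (GRCr8).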

Additional observations from a re-analysis of the deposited data

Results flagged for a closer look

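The signal of Stx1a on control 2 stood apart from the other control arrays. It was 17.0, while the other 4 lay between 43.7 and 51.2, and its gap to the nearest of them took up 0.847 of the group's whole range on the log2 scale (Dixon's 95% critical value for 5 values is 0.71). It was 1 of 40 groups of arrays examined in this way, and chance alone marks about 1 in 20.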

How the results depend on the processing

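Of 393 values of 17 named members under alternatives, 360 kept their direction and side of the threshold. The call of Syt4 ended in 10 of 24, 4 newly passed (Snap25 in 2 fits, Rab3d, Sytl4), and 19 turned direction, none of them called. Members called lower were 0 with the anterior lobe hormone level as a covariate, with the mean of probe sets, with median centring, with no filter and with no intensity trend, 3 without dehydrated 5 and control 1, and 0 to 1 leaving out 1 array. Members called higher were 1 without those 2 arrays and 0 to 1 leaving out 1. Other pathway genes called higher were 1 after median centring (Vamp5), 1 without those 2 arrays (Vamp5) and 0 to 2 leaving out 1. Called lower were 5 without those 2 (Stx16, Sytl2, Exoc5, Amph and Ap2b1) and 0 to 4 leaving out 1. Over all probe sets the count of calls was 458 in the reported fit, 218 to 1163 leaving out 1 array (1163 without dehydrated 5), 1398 without both, 240 with no intensity trend and 321 with no filter.

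The change of Nsf was -0.349 on the mean of probe sets, -0.298 on the second probe set, -0.00448 without dehydrated 5 and control 1, and -0.0434 to 0.056 leaving out 1 array. That of Syt1 was 0.0529 with the RNA integrity ratio as a covariate, 0.0255 after cyclic loess, 0.022 after median centring, 0.0199 after quantile normalization and -0.0734 to 0.045 leaving out 1 array, and that of Stx1a was -0.314 to 0.133. The RNA integrity ratio differed by 0.372 on all arrays (exact permutation p = 0.214) and by 0.242 to 0.557 leaving out 1 array. Without dehydrated 5 and control 1 it differed by 0.692 (exact permutation p = 0.0286, the smallest possible). The ratios of those 2 arrays went against the order of the groups. Leaving both out therefore separates the groups by construction, and that p is no test of the ratio. The anterior lobe hormone level differed by -0.00576 to 0.389 leaving out 1 array. The melanotroph marker level differed by -0.157 without those 2 arrays (exact permutation p = 0.0571, where 0.0286 is the smallest possible). The cause was not tested. No paired analysis was possible because the labels give no replicate numbers that the groups share.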
